A study of Xenopus laevis with 79 samples.

Results

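The genes followed here are pfkfb4 and egr4, which were among the genes raised at the neural border when these embryos were surveyed region by region. They are represented by 3 loci of the 45099 in the count table: the locus xelaev18025735m.g, annotated as pfkfb4 by the study and called pfkfb4 below, and egr4.l and egr4.s, the egr4 copies on the long and short chromosomes of the allotetraploid frog Xenopus laevis. No locus in the table was named pfkfb4.l or pfkfb4.s, and which copy of pfkfb4 the locus represents was not determined. A second locus that the study annotated as pfkfb4 with a weaker match, xelaev18023747m.g, is described among the relatives of pfkfb4. The members were chosen by their level in border pieces against other pieces at St. 12.5 and St. 14, so the border pattern is given as a description and without a test.

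pfkfb4 encodes a bifunctional enzyme that makes and removes the sugar bisphosphate that activates phosphofructokinase, and in Xenopus it has been linked to ectoderm patterning through Akt signalling. egr4 encodes a zinc finger transcription factor of the early growth response family, many of whose members are induced within minutes of a signal, and in Xenopus it has been linked to the posterior hindbrain. The neural border lies between the neural plate and the nonneural ectoderm and gives rise to the neural crest, a migratory population that forms peripheral nerves, pigment cells and parts of the head skeleton.

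RNA of wild-type embryos obtained by in vitro fertilization was sequenced in 79 libraries, of which 63 came from single pieces of dissected ectoderm and 16 from whole embryos. At St. 12.5 (early neurula) the pieces were anterior and posterior neural plate (NPa and NPp, 3 libraries each), anterior, posterior and lateral neural border (NBa 4, NBp 3 and NBl 3), the anterior border together with the preplacodal ectoderm (ANB/PPE, 3) and nonneural ectoderm (NNE, 3). At St. 14 (mid neurula) they were NPa (3), NPp (4), NBa (6), NBp (5), anterior and posterior nonneural ectoderm (NNEa and NNEp, 3 each), the anterior neural fold together with the preplacodal ectoderm (ANF/PPE, 5), and undivided border (NB, 4) and plate (NP, 2). At St. 17 they were neural crest (NC, 4) and placode (Pc, 2), and whole embryos were taken in 2 libraries at each of 8 times between St. 11-11.5 and St. 18-19. Pieces were cut by eye, and by the labels several pairs came from the same embryo. They were St. 14 NPa replicates 1 and 2, NNEp replicates 2 and 3, ANF/PPE replicates 2 and 3 and NBa replicates 5 and 6. The p-values of these groups thus rest on fewer animals than libraries. Different regions of a stage were also cut from the same embryos: by the labels, NBa and NBp share 3 numbered embryos at St. 12.5 and 2 at St. 14.

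Levels are CPM, the count of a locus scaled to library size with TMM factors. A library held 8898486 to 18468048 counts on loci (median 13134905), at which 3 counts, the floor used here, are worth 0.174 to 0.358 CPM. CPM does not correct for transcript length, so levels are compared between libraries and not between genes. In such pieces, fewer cells that express a gene and less RNA per cell cannot be told apart. Where groups are said not to overlap, this is a description, and the share of all loci without overlap was not counted. The dissections were checked against 7 neural crest marker loci (snai2, foxd3, sox9 and twist1), whose summed level lay at 1797 to 1995 CPM in St. 17 NC, against 49.4 and 97.7 CPM in Pc, and against krt12, tp63 and foxi1, epidermal loci that together reached 5470 to 8182 CPM in St. 14 NNEp, against 5.31 to 491 CPM in NPp. A snai2 locus stood high outside the border at St. 14, with 310 to 522 CPM in NPa and 90.4 to 138 CPM in NNEa. It held 132 to 1042 CPM in NBp and 602 to 1006 CPM in NBa, but 12.7 and 64.4 CPM in undivided NP. For snai2 in adjacent pieces the paper proposes that some samples contained a few border cells, which was not tested here. Some pieces went against their labels. The library labelled St. 14 NBp replicate 2 held 39.03 CPM of cdx4.l, a caudal homeobox gene of posterior tissue, against 659 to 1060 CPM in the other 4 NBp libraries. The NPa libraries of St. 14, anterior by label, parted too: replicates 1 and 3 held 62.6 and 124 CPM of cdx4.l and 0.594 and 1.29 CPM of otx1.l, a head homeobox gene, where replicate 2 held 0.323 and 160 CPM, although both lay under the 754 to 1120 CPM of cdx4.l in NPp. Tests of pfkfb4 and egr4.l in St. 14 NBp and NPa are given with and without these libraries. Those of other loci and of gene lists rest on all libraries. cdx4.l and otx1.l were picked as landmarks after their values were seen. By egr2.l, a hindbrain segment and crest gene, the NPa libraries did not part, with 46.7 to 60.9 CPM in all 3.

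At St. 14, pfkfb4 lay highest in the anterior border. The 6 NBa libraries ranged from 160 to 245 CPM with a median of 178 CPM. NBp libraries held 42.3, 276, 14.8, 144 and 102 CPM, the second of these being the library labelled replicate 2, and undivided NB libraries held 88.0, 153, 134 and 197 CPM. NBa was uniform, with 193 ± 36.8 CPM (mean ± SD, n = 6), while NBp spread widely around 116 ± 103 CPM (n = 5).

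Outside the border at St. 14, pfkfb4 stood higher in anterior than in posterior pieces of plate and nonneural ectoderm. The ANF/PPE pieces, also anterior, were mostly low. NNEa held 66.9, 149 and 207 CPM and NPa 57.2, 34.5 and 84.04 CPM. NNEp held 6.25, 5.97 and 6.96 CPM and NPp 3.30, 4.90, 8.42 and 11.0 CPM. ANF/PPE held 2.62, 14.2, 5.37, 11.8 and 53.1 CPM and undivided NP 10.7 and 22.3 CPM. Anterior nonneural ectoderm thus overlapped the border groups, and posterior plate and posterior nonneural ectoderm lay below every border library. With undivided NB and NP included, the 15 border libraries of St. 14 ran from 14.8 to 276 CPM (median 160). The 20 others ran from 2.62 to 207 CPM (median 11.4). Of the border libraries 3 lay above the highest of the others, or 2 of 14 without the library labelled NBp replicate 2 (highest 245 CPM, median 156).

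egr4.l at St. 14 was high in the same pieces but far less even. The 6 NBa libraries held 13.2 to 287 CPM (median 134), and NBp libraries 47.6, 288, 11.0, 143 and 92.3 CPM. Undivided NB libraries held 21.0, 60.6, 65.8 and 44.1 CPM. In the plate it stood at 137, 13.3 and 77.1 CPM in NPa and at 79.9 and 122 CPM in undivided NP, within the range of the border. NNEa held 56.7, 65.2 and 90.8 CPM. It was low in NPp (4.07, 3.83, 3.79 and 2.27 CPM), in ANF/PPE (0.0749 to 1.58 CPM) and in NNEp, where 35 of 37 counts came from replicate 1 (3.59 CPM) and 1 count each from the other two. In the order of St. 14 means, NBa, NBp, NP, NPa, NNEa and NB each overlapped the next, and the one gap without overlap lay between NB and NPp, 13.7-fold in the means.

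**Figure D1:**
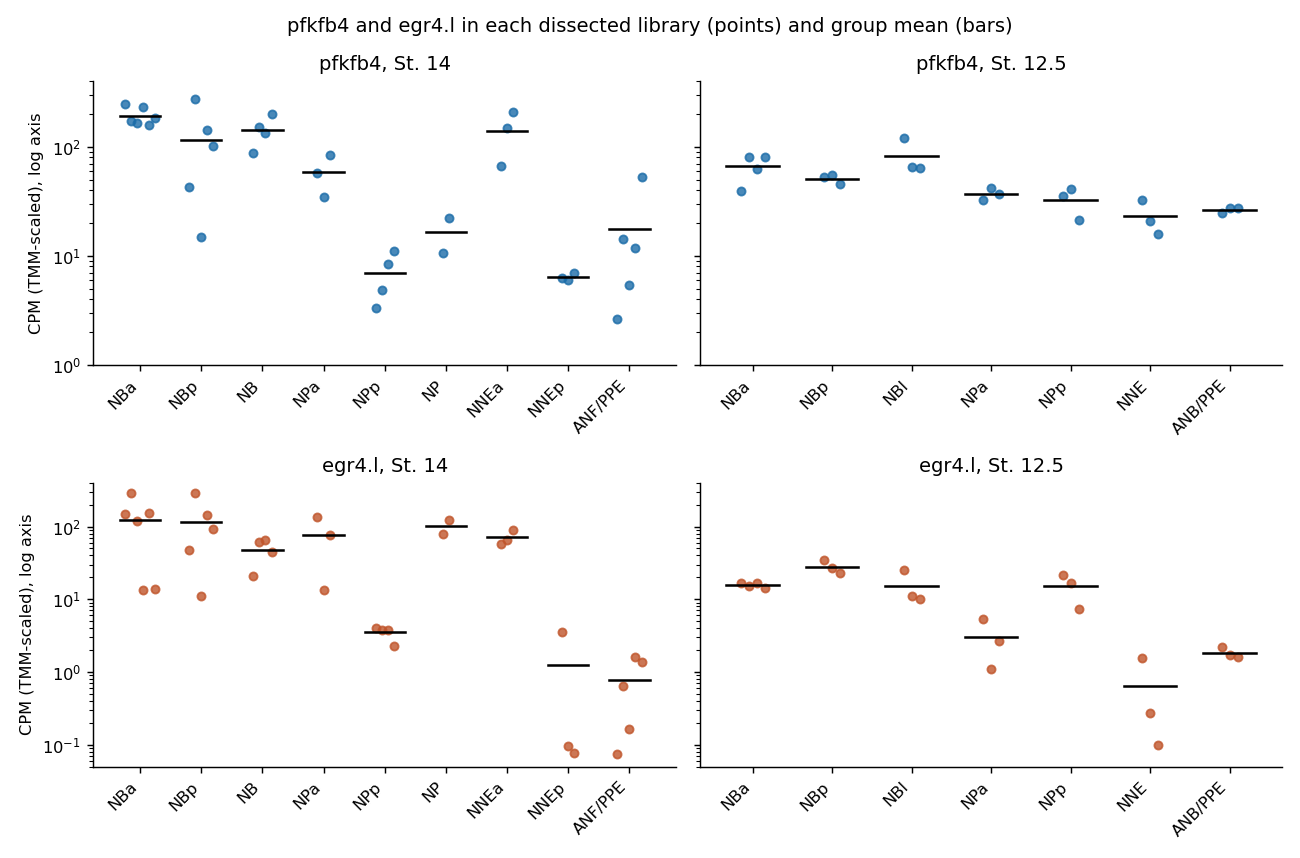
pfkfb4 and egr4.l by region and stage (CPM, TMM-scaled, with points as libraries and bars as group means). At St. 14 pfkfb4 is high in NBa (160 to 245 CPM) and NNEa (66.9 to 207 CPM) and low in NNEp (5.97 to 6.96 CPM). egr4.l spreads from 13.2 to 287 CPM within NBa.

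At St. 12.5 the same loci were less steeply graded. pfkfb4 held 120, 64.7 and 63.4 CPM in NBl, 39.2, 80.7, 62.8 and 80.8 CPM in NBa and 52.4, 55.1 and 45.8 CPM in NBp. It held 32.7, 41.6 and 36.9 CPM in NPa, 35.1, 40.8 and 21.3 CPM in NPp, 24.8, 27.2 and 27.2 CPM in ANB/PPE and 32.4, 20.8 and 15.9 CPM in NNE. In 9 of the 10 border libraries pfkfb4 exceeded the highest of the 12 others (41.6 CPM), and in the order of means only NBp and NPa were neighbours without overlap. egr4.l led in NBp (34.3, 26.8 and 23.0 CPM), followed by NBa (17.0, 15.2, 16.9 and 14.1 CPM), NBl (25.2, 11.0 and 9.94 CPM) and NPp (21.2, 16.7 and 7.31 CPM). It was lower in NPa (5.35, 1.08 and 2.66 CPM), ANB/PPE (2.196, 1.71 and 1.63 CPM) and NNE (1.56, 0.271 and 0.0991 CPM). The posterior plate was thus within the border's range for egr4.l at this stage, and 4 of 10 border libraries exceeded every other library.

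The question that the rule did not use was whether the members differ along the anterior-posterior (A-P) axis between pieces labelled as the same tissue. In the St. 14 plate both did. pfkfb4 averaged 58.6 ± 24.8 CPM in NPa (SD, n = 3) and 6.90 ± 3.47 CPM in NPp (n = 4), with no overlap, a separation not counted over all loci. In edgeR's quasi-likelihood test on all loci, with Benjamini-Hochberg adjustment, the log2 fold change was 3.04 ± 0.73 (SE; 8.23-fold, adjusted p = 0.0205). egr4.l averaged 75.9 ± 62.0 CPM in NPa and 3.49 ± 0.824 CPM in NPp, a log2 fold change of 4.37 ± 1.02 (adjusted p = 0.0167), also with every NPa library above every NPp library. This test called 2.1% of the 22582 loci, and 1.05% were higher in NPa. With the embryo number as a replicate block the pfkfb4 call held (3.69, adjusted p = 0.0213) and that of egr4.l was lost (4.16, adjusted p = 0.0947). The pfkfb4 call was lost without NPa replicate 1 or 3 or NPp replicate 1, 2 or 3 (2.74 to 3.15, adjusted p = 0.0552 to 0.0738). With NPa replicates 1 and 3 both left out, replicate 2 stood alone, its spread taken as that of the other groups, and neither gene was called (2.33 for pfkfb4, adjusted p = 0.435, and 1.92 for egr4.l, adjusted p = 0.842). The egr4.l call was lost without NPa replicate 1 (3.66, adjusted p = 0.0974), NPp replicate 3 (4.40, adjusted p = 0.058) or NPp replicate 4 (4.21, adjusted p = 0.0792). Neural crest markers moved with both: their sum was 701, 976 and 1167 CPM in NPa from lowest to highest, against 16.6 to 68.3 CPM in NPp, and 6 of 7 loci were called higher. Their part in the result was not tested.

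Both genes also differed along the axis in the St. 14 nonneural ectoderm. pfkfb4 averaged 141 ± 70.2 CPM in NNEa and 6.40 ± 0.511 CPM in NNEp (n = 3 each), a log2 fold change of 4.42 ± 0.86 (adjusted p = 0.00254). The lowest NNEa library (66.9 CPM) lay far above the highest NNEp library (6.96 CPM), a separation not counted over all loci. egr4.l had 2546 counts over the NNEa libraries and 37 over the NNEp libraries, a ratio of 65.4 with a 95% interval for counting error of 47.3 to 93.1. The fitted log2 fold change of egr4.l was 5.84 ± 1.27 (adjusted p = 0.00669), in a test that called 2.96% of loci, 2.13% higher and 0.833% lower in NNEa. Both calls held with the replicate block, at 3.82 for pfkfb4 (adjusted p = 0.0274) and 6.18 for egr4.l (adjusted p = 0.0447). Of the 37 counts in NNEp, 35 came from replicate 1, without which the fitted value was 9.50 (adjusted p = 0.00343). Without NNEp replicate 2 or 3 it was 5.30 for both (adjusted p = 0.0559 and 0.0514), and limma-voom gave 7.50 (adjusted p = 0.106). Neural crest markers moved the same way here: 418 to 573 CPM in NNEa against 3.18 to 11.3 CPM in NNEp, with twist1.l at 0 in all NNEp libraries and 5 of 7 loci called higher. Their part was not tested.

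Within the St. 14 border neither gene was called in NBa over NBp. pfkfb4 gave a log2 fold change of 0.74 ± 0.56 in NBa over NBp (adjusted p = 0.766, 95% interval -0.35 to 1.83) and egr4.l 0.08 ± 0.73 (adjusted p = 0.992, interval -1.348 to 1.501), where 1.65% of loci were called and 1.47% were lower in NBa. Without the library labelled NBp replicate 2 the values were 1.36 (adjusted p = 0.234) and 0.75 (adjusted p = 0.749). All the remaining NBp libraries then lay under the lowest NBa library for pfkfb4 (160 CPM), a separation not counted over all loci. B108 libraries alone, one of 2 library name prefixes, kept only NBp replicates 2 and 4 of NBp and gave -0.17 for pfkfb4 and -0.87 for egr4.l, neither called. Without replicate 2 these became 0.37 and -0.26. The difference of the A-P differences, plate minus border, was 4.29 ± 1.21 for egr4.l (unadjusted p = 0.00131) and 2.30 ± 0.89 for pfkfb4 (unadjusted p = 0.0148). Neither passed adjustment (adjusted p = 0.979 for egr4.l and above it for pfkfb4). Without NBp replicate 2 the differences were 3.69 and 1.72, and without NPa replicates 1 and 3 they were 1.85 and 1.58. edgeR called 0 of 22582 loci in that test, with 727 at an unadjusted p under 0.05, and DESeq2 called 18.

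**Figure D2:**
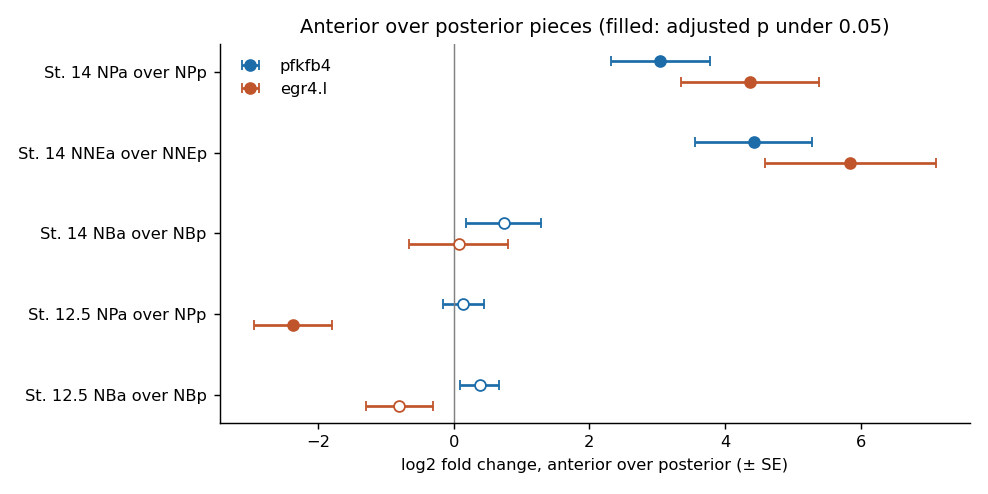
Log2 fold changes of pfkfb4 and egr4.l, anterior over posterior pieces, with SE bars, in plate, border and nonneural ectoderm at St. 14 and in plate and border at St. 12.5; filled points have an adjusted p under 0.05. Plate and nonneural ectoderm of St. 14 lie to the right (3.04 to 5.84), the border comparisons lie between -0.80 and 0.74 with none called, and egr4.l in the St. 12.5 plate lies to the left at -2.37.

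At St. 12.5 egr4.l was graded the other way in the plate. It averaged 3.03 ± 2.16 CPM in NPa and 15.1 ± 7.11 CPM in NPp (n = 3 each), a log2 fold change of -2.37 ± 0.58 (adjusted p = 0.0217), in a test that called 3.73% of loci, with 2.99% of all loci lower in NPa. The highest NPa library (5.35 CPM) lay under the lowest NPp library (7.31 CPM), a separation not counted over all loci. The replicate block gave -2.41 (adjusted p = 0.00211). Without NPa replicate 2 the value was -1.95 (adjusted p = 0.134), without NPa replicate 3 -2.28 (adjusted p = 0.0852), without NPp replicate 1 -2.02 (adjusted p = 0.0789) and without NPp replicate 2 -2.31 (adjusted p = 0.0517). Mesoderm markers (myod1, myf5, t and msgn1) moved with it, at 0.155 to 1.03 CPM in NPa against 28.2 to 497 CPM in NPp, and their part was not tested. pfkfb4 was not called, with 37.1 ± 4.46 CPM in NPa and 32.4 ± 9.99 CPM in NPp (log2 fold change 0.14 ± 0.31, adjusted p = 0.873). In the St. 12.5 border egr4.l gave -0.80 ± 0.49 (adjusted p = 0.714) and pfkfb4 0.38 ± 0.29 (adjusted p = 0.839) for NBa over NBp, with 2.93% of loci called and 2.28% lower in NBa. Plate minus border gave -1.57 ± 0.75 for egr4.l and -0.24 ± 0.42 for pfkfb4 at this stage, neither called, where 0.0382% of loci were called, 0.00954% positive and 0.0286% negative.

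The reversal of egr4.l in the plate was tested as an interaction over all dissected libraries. The A-P difference at St. 14 exceeded that at St. 12.5 by 6.77 ± 1.25 on the log2 scale (adjusted p = 0.00279), where 0.411% of loci were called, 0.324% positive and 0.0871% negative. Leaving out NPa replicate 1 of St. 14 gave 6.02 (adjusted p = 0.016), and the call was kept without each of the 13 plate libraries in turn. It was lost with NPa replicates 1 and 3 of St. 14 both left out (4.28, adjusted p = 0.283). limma-voom gave 6.45 (adjusted p = 0.0942). Of the 7 neural crest marker loci, 4 also gained a called positive difference, and their part was not tested. pfkfb4 gave 2.91 ± 0.88 (adjusted p = 0.168), or 2.16 without NPa replicates 1 and 3 of St. 14. In the border the same interaction was 0.34 ± 0.75 for pfkfb4 and 0.85 ± 0.98 for egr4.l, neither called, with 0.0373% of loci called and 0.00415% negative. Without the library labelled NBp replicate 2 of St. 14 these were 0.96 and 1.52, also not called.

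The uneven levels of egr4.l among St. 14 replicates lay beside the axial landmarks. NBa replicates 4 and 6 and NPa replicate 2, with 13.2, 13.8 and 13.3 CPM of egr4.l, held 0.0720, 0.490 and 0.323 CPM of cdx4.l and 69.2, 54.5 and 160 CPM of otx1.l. The other 4 NBa libraries, with 120 to 287 CPM of egr4.l, held 10.7 to 52.3 CPM of cdx4.l and 3.99 to 43.02 CPM of otx1.l. NPa replicates 1 and 3, with 137 and 77.1 CPM of egr4.l, held 62.6 and 124 CPM of cdx4.l and 0.594 and 1.29 CPM of otx1.l. NPp libraries, all low in egr4.l, held 754 to 1120 CPM of cdx4.l. In the plate and in NBa, egr4.l was thus high in libraries with intermediate cdx4.l, and the library labelled NBp replicate 2 (288 CPM of egr4.l, 39.03 CPM of cdx4.l) resembled these. The other 4 NBp libraries held 11.0 to 143 CPM of egr4.l at 659 to 1060 CPM of cdx4.l, so the same level of cdx4.l stood beside other levels of egr4.l in border and plate. pfkfb4 held 234 and 183 CPM in NBa replicates 4 and 6, within the range of the other NBa libraries, and 34.5 CPM in NPa replicate 2, the lowest of NPa. These pairs of values are a description, since the landmarks were chosen with the values in view.

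**Figure D3:**
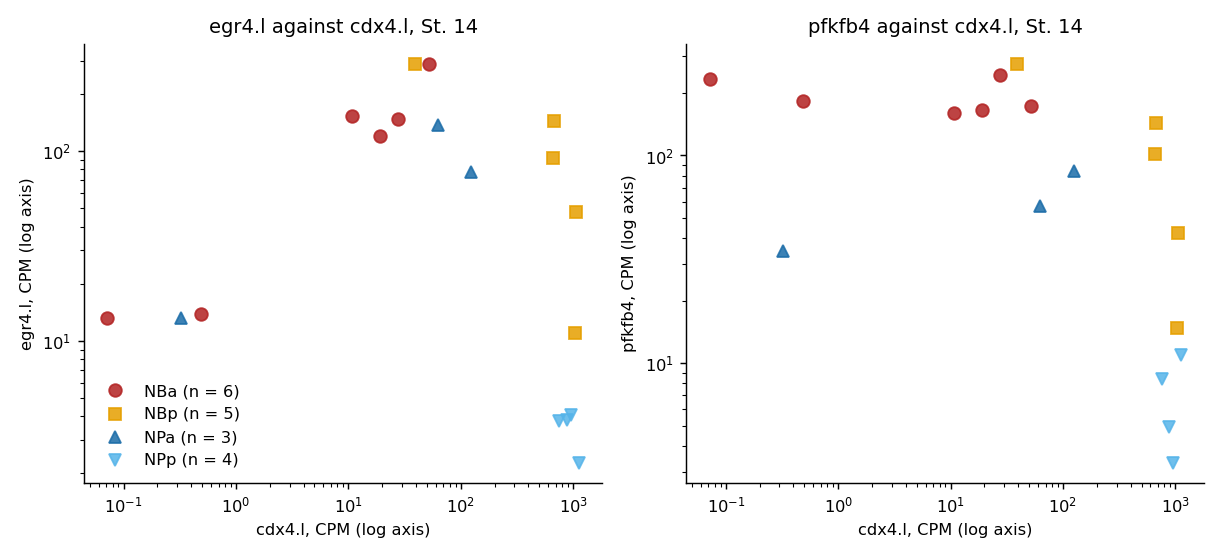
pfkfb4 and egr4.l against the posterior landmark cdx4.l in St. 14 libraries (CPM, log axes; each point is a library). egr4.l falls to 13.2 to 13.8 CPM in the NBa and NPa libraries with under 0.5 CPM of cdx4.l and to 2.27 to 4.07 CPM in NPp libraries with 754 to 1120 CPM, while pfkfb4 in NBa stays at 160 to 245 CPM across the range of cdx4.l.

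Change with stage was compared within regions. Tests of stage called 27.5% to 46.6% of all loci, so a call here sets a locus little apart, and the median locus itself shifted by 0.06 to 0.16 on the log2 scale. The members were chosen for their border level against other pieces at both stages. The values here, in the border and in the other regions, are thus not independent of that choice. In NBa both genes were higher at St. 14. pfkfb4 averaged 193 ± 36.8 CPM at St. 14 (n = 6) and 65.9 ± 19.7 CPM at St. 12.5 (n = 4), a log2 fold change of 1.55 ± 0.53 (adjusted p = 0.0135). egr4.l averaged 122 ± 102 CPM at St. 14 and 15.8 ± 1.398 CPM at St. 12.5, a change of 2.94 ± 0.74 (adjusted p = 0.00104), although NBa replicates 4 and 6 of St. 14 lay under the St. 12.5 mean. In this comparison 46.6% of loci were called and 24.3% were higher. The pfkfb4 groups did not overlap, a separation not counted over all loci, and those of egr4.l did.

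In NBp, egr4.l was higher at St. 14 with all libraries (116 ± 107.8 CPM at St. 14, 28.03 ± 5.75 CPM at St. 12.5, log2 fold change 2.08 ± 0.80, adjusted p = 0.0354). pfkfb4 was not called (1.21 ± 0.59, adjusted p = 0.0979). Without the library labelled NBp replicate 2 these fell to 1.41 (adjusted p = 0.15) and 0.59 (adjusted p = 0.431), and in B108 libraries alone, where NBp replicates 2 and 4 stood for St. 14, pfkfb4 was called at 2.07 (adjusted p = 0.00808), a call lost without replicate 2 (1.48, adjusted p = 0.141). pfkfb4 was also called without NBp replicate 3 of St. 14 (1.49, adjusted p = 0.0332). The egr4.l call was also lost without NBp replicate 4 of St. 14 or any of the 3 St. 12.5 libraries (1.956 to 2.25, adjusted p = 0.0522 to 0.111). Here 38.9% of loci were called and 20.7% were higher.

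The plate parted by axial level. In NPp both genes fell with stage: pfkfb4 averaged 6.90 ± 3.47 CPM at St. 14 and 32.4 ± 9.99 CPM at St. 12.5 (log2 fold change -2.23 ± 0.61, adjusted p = 0.00285), and egr4.l 3.49 ± 0.824 CPM at St. 14 and 15.1 ± 7.11 CPM at St. 12.5 (-2.09 ± 0.81, adjusted p = 0.0333). No St. 14 NPp library overlapped a St. 12.5 one for either gene, a share not counted over all loci. The test called 41.2% of loci, and 20.4% were lower. The egr4.l call was lost without each library but St. 12.5 NPp replicate 3 (-2.17 to -1.76, adjusted p = 0.0533 to 0.108), while the pfkfb4 call held without each. In NPa egr4.l was higher at St. 14 (75.9 ± 62.0 CPM at St. 14, 3.03 ± 2.16 CPM at St. 12.5, 4.68 ± 0.98, adjusted p = 0.000169), and pfkfb4 was not called (0.68 ± 0.64, adjusted p = 0.408), with 40% of loci called and 21.6% higher. Without NPa replicates 1 and 3 of St. 14 they gave 2.18 (adjusted p = 0.162) for egr4.l and -0.066 for pfkfb4. All 7 neural crest marker loci were also higher at St. 14 in NPa and in both border pieces, and their part was not tested.

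In the outer ectoderm, pfkfb4 gave -0.55 ± 0.56 for St. 14 ANF/PPE over St. 12.5 ANB/PPE (adjusted p = 0.499, 27.5% of loci called). Without ANF/PPE replicate 5, which at 53.1 CPM stood apart from 2.62 to 14.2 CPM in the other 4 and also held the highest sum of neural crest markers of the group (388 CPM, median 131 CPM), the value was -1.61 (adjusted p = 0.0202). egr4.l was low at both stages in these pieces, with 0.0749 to 1.58 CPM in ANF/PPE and 1.63 to 2.196 CPM in ANB/PPE (-1.196 ± 0.90, adjusted p = 0.34). For St. 14 nonneural ectoderm over St. 12.5 NNE, the fit averaged the log2 levels of NNEa and NNEp. egr4.l gave 3.85 ± 1.03 (adjusted p = 0.00322, 30.4% of loci called), which without NNEp replicate 1 became 2.04 (adjusted p = 0.367). Its means were 70.9 CPM in NNEa, 1.25 CPM in NNEp and 0.644 CPM in St. 12.5 NNE, so the high level was that of NNEa. pfkfb4 gave 0.40 ± 0.57 (adjusted p = 0.639), with NNEa at 141 CPM and NNEp at 6.40 CPM on either side of NNE at 23.0 CPM in the means.

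egr4.s had low counts throughout, with no correction for the length of either copy. Its level did not pass 7.89 CPM in any of the 79 libraries, and at St. 14 it was highest in border, anterior plate and undivided plate: 6.601, 7.89, 3.16, 0.0720, 1.26 and 0.0817 CPM in NBa replicates 1 to 6, and 0.623, 7.46, 0, 2.55 and 2.06 CPM in NBp replicates 1 to 5. NPa held 2.75, 0 and 3.87 CPM and undivided NP 1.22 and 4.11 CPM. No count of egr4.s fell in any ANF/PPE or NNEp library, which allows up to the floor of 3 counts in each. In NNEa it was rare although egr4.l was high, with 5, 2 and 0 counts of egr4.s beside 599, 717 and 1230 counts of egr4.l. In NBa, NBp and NPa the libraries low in egr4.l were also the low ones for egr4.s.

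The share of egr4 counts that fell on egr4.s was compared between stages. At St. 14 it was 2.57% in NBa (258 of 10049 counts, exact 95% interval 2.27% to 2.90%) and 2.11% in NBp (165 of 7829), or 1.76% without the library labelled NBp replicate 2 (75 of 4267). At St. 12.5 it was 0.132% in NBa (1 of 755, interval 0.00335% to 0.736%) and 0.401% in NBp (4 of 998). Intervals and floors cover counting error only. Over single libraries the share averaged 1.75 ± 1.25% at St. 14 (n = 11, range 0 to 4.27%) and 0.258 ± 0.323% at St. 12.5 (n = 7, range 0 to 0.654%), a difference of 1.49 percentage points (exact permutation test, two-sided, p = 0.00729 over 31824 arrangements). Without the library labelled NBp replicate 2 the exact p was 0.0109, in NBa alone it was 0.0476 and in B108 libraries alone 0.00524. These libraries are not all from separate animals. With 1 value per numbered embryo the share averaged 1.403 ± 1.15% at St. 14 (5 embryos) and 0.301 ± 0.288% at St. 12.5 (3 embryos), which the exact permutation test did not separate (two-sided p = 0.196 over 56 arrangements, which can go as low as 0.0179). The 3 St. 14 border libraries low in egr4 (NBa replicates 4 and 6, NBp replicate 3) had shares of 0 to 0.588%, as low as those of St. 12.5. Reads that map equally to both copies were excluded by the authors, so the share rests on the stretches where the copies differ. By counts, egr4.s at St. 14 exceeded St. 12.5 by a pooled ratio of 153 in NBa (258 against 1 count, interval 27.2 to 6059), 21.97 in NBp (165 against 4, 8.42 to 81.6, or 12.2 without replicate 2) and 21.6 in NPa (94 against 4, 8.17 to 80.997, with none of the 94 in NPa replicate 2). In St. 17 NC the share was 3.10% (48 of 1546 counts).

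The border levels named above as the rule for choosing the members came from earlier stages than St. 17. The members were, however, chosen with earlier results of these data known. The comparison of NC with Pc is therefore not shown to be independent of that choice. pfkfb4 held 83.9, 100.1, 337 and 128 CPM in NC and 17.7 and 20.3 CPM in Pc. All NC libraries lay above both Pc libraries, a separation not counted over all loci. The log2 fold change of pfkfb4 was 3.17 ± 0.79 (adjusted p = 0.00615), where 12.6% of loci were called, 4.38% higher and 8.26% lower. With either Pc library left out the value was 3.07 or 3.29 (adjusted p = 0.0886 or 0.109). egr4.l held 24.4, 30.6, 33.04 and 12.7 CPM in NC against 1 count in each Pc library (0.0837 and 0.0762 CPM). The 1498 counts of NC against 2 of Pc gave a pooled ratio of 312 (interval for counting error 86.2 to 2579), and egr4.l was called at 8.20 ± 1.62 (adjusted p = 0.000596), a call that every library left out in turn kept. The neural crest marker sum in the same libraries was 1797 to 1995 CPM in NC against 49.4 and 97.7 CPM in Pc, with 5 of 7 loci called higher.

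From the border to the crest egr4.l was called and pfkfb4 was not, and the genes were not tested against each other. The members were chosen for their level in border pieces, NBa included, so a lower level in NC is favoured by that choice. egr4.l was lower in St. 17 NC (25.2 ± 9.08 CPM, n = 4) than in St. 14 NBa (122 ± 102 CPM, n = 6), by -2.33 ± 0.71 on the log2 scale (adjusted p = 0.0161), where 20.3% of loci were called, 9.96% higher and 10.4% lower. NC libraries nevertheless lay above NBa replicates 4 and 6, except NC replicate 4 at 12.7 CPM, and without NC replicate 4 the adjusted p was 0.0622. pfkfb4 averaged 162 ± 118 CPM in NC and 193 ± 36.8 CPM in NBa (-0.33 ± 0.50, adjusted p = 0.69, interval -1.31 to 0.65), and NC replicate 3 at 337 CPM was the highest of all 79 libraries.

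Undivided NB and NP of St. 14 were separate libraries from the divided pieces. pfkfb4 averaged 143 ± 45.4 CPM in NB (n = 4) and 16.5 ± 8.19 CPM in NP (n = 2). egr4.l averaged 47.9 ± 20.2 CPM in NB and 101 ± 29.6 CPM in NP, the opposite order. Neither gene overlapped between NB and NP, a separation not counted over all loci. This border contrast is the kind the rule used, so its fit is given as a description: 3.14 ± 0.93 for pfkfb4 and -1.05 ± 1.01 for egr4.l on the log2 scale. All NB libraries carried the prefix B108 and both NP libraries B100, so these libraries alone cannot separate prefix from region. With prefix as a covariate over all St. 14 libraries the values were 2.44 and -1.90. Immediate-early genes summed to 1298 to 1877 CPM in NB and 2432 and 3605 CPM in NP, and mesoderm markers to 4.20 to 212 CPM in NB and 37.9 and 815 CPM in NP, and their part in the egr4.l order was not tested.

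Across the 63 dissected libraries pfkfb4 and egr4.l were correlated on the log2 CPM scale, with Pearson's r of 0.728 (Spearman's rho 0.726). The libraries share regions and embryos, so r is a description. Within St. 12.5 r was 0.71 (22 libraries) and within St. 14 0.780 (35 libraries), falling to 0.456 within the 15 border libraries of St. 14. In the 16 whole embryos it was -0.276.

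**Figure D4:**
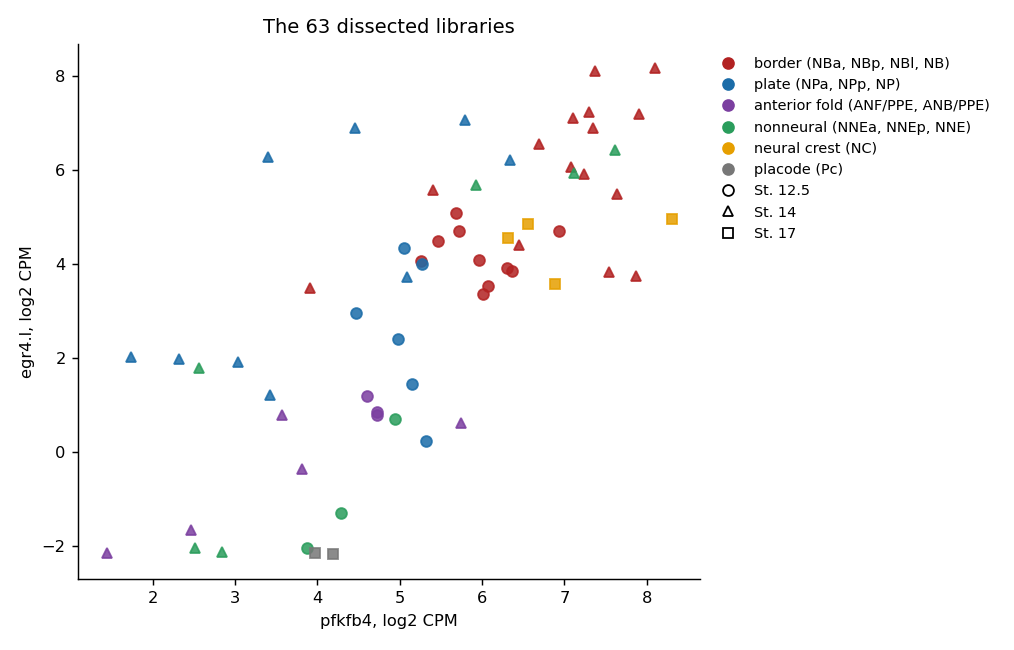
egr4.l against pfkfb4 in the 63 dissected libraries (log2 CPM; colour gives the tissue and shape the stage). Both are low in ANF/PPE, NPp and NNEp of St. 14 and high in most border, NNEa and NC libraries (r = 0.728), and undivided NP stands high in egr4.l and low in pfkfb4.

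The loci most like each member over these libraries, among 24105, were ranked by the same r. For pfkfb4 they were tmem189.l (0.814), pim3.s (0.785, a serine/threonine kinase of the Pim family), loc100492966.l (0.781), xelaev18027745m.g (0.772) and irx4.s (0.755, an Iroquois homeobox gene). For egr4.l they were dact1.s (0.797, a regulator of Dishevelled in Wnt signalling), foxd3.s (0.787) and foxd3.l (0.784, forkhead factors of premigratory crest), axin2.l (0.781) and nkx1-2.l (0.774, a homeobox gene). The gene axin2 is a feedback inhibitor and common target of Wnt signalling. The study's annotation of the locus axin2.l also holds cep112, with the stronger match. No locus was among the first 5 for both members. Leaving out any 1 library kept at least 4 of the 5 for each.

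Relatives of pfkfb4 were counted beside it. The list held 10 loci (pfkfb2, pfkfb3, pfkp, fbp1, fbp2 and xelaev18023747m.g), of which 9 were tested. All but the last are for other enzymes of the same sugar bisphosphate and its branch point. The last is a second locus that the study annotated as pfkfb4, with a weaker match. At St. 14 its mean was 51.4 CPM in NPa, 50.5 CPM in NPp, 47.6 CPM in NNEa and 44.9 CPM in NNEp. At St. 17 it was 48.9 CPM in NC and 71.8 CPM in Pc. At St. 12.5 its highest means were 173 CPM in NBp and 149 CPM in NBa. In St. 14 NPa over NPp and NNEa over NNEp, 0 of 9 were called in either direction, a count that the 2.1% and 2.96% called over all loci would also give, with medians of -0.03 and -0.28 against -0.05 and 0.00 over all loci on the log2 scale. The largest difference in the plate among the 9 was that of pfkfb3.s at -1.98 ± 0.61 in NPa over NPp (adjusted p = 0.088). pfkfb3.s was lower in NBa than in NBp (-2.17 ± 0.46, adjusted p = 0.0085). With stage in NBa, where 22.3% of all loci were lower and 24.3% higher, 5 of 9 were lower at St. 14, among them pfkfb3.l (-2.12), pfkfb3.s (-2.45) and xelaev18023747m.g (-1.43), and only pfkfb2.l was higher (0.47), while pfkfb4 was higher by 1.55. In NC over Pc, where 4.38% of all loci were higher and 8.26% lower, 0 of 9 were higher and 2 were lower, fbp1.l and fbp1.s, which encode fructose bisphosphatase.

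Among the other egr loci and their nab corepressors (7 loci), egr2.l, a hindbrain segment and crest gene, stood out in St. 14 NPa over NPp. egr2.l averaged 55.9 CPM in NPa and 0.403 CPM in NPp (log2 fold change 7.03 ± 1.18, adjusted p = 0.00314), the 1 locus called of 4 tested, with 1.05% of all loci higher. In NC over Pc, 3 of 5 were higher, with 4.38% of all loci higher: egr2.l (7.34), nab2.l (5.92) and nab2.s (5.75). egr1.l was not higher in any of these and was lower at St. 14 than at St. 12.5 in NBa (-2.21 ± 0.82, adjusted p = 0.0229).

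Of the immediate-early list (39 loci, including fos, jun and ier families), 1 of 35 was higher in St. 14 NPa over NPp, namely egr2.l, and 0 of 35 were called in NBa over NBp or NNEa over NNEp. These counts are close to the 2.1%, 1.65% and 2.96% of all loci called. For regions against whole embryos the fit averaged log2 levels over the 7 regions, which can part from the ratio of mean CPM. At St. 12.5 this mean exceeded whole embryos in 18 of 37 immediate-early loci and was under them in 3, with 30.2% of all loci called. egr4.l gave 0.18 ± 0.77 (adjusted p = 0.897), at mean levels of 11.4 CPM in the regions and 5.47 CPM in whole embryos. At St. 14, 0 were higher and 4 lower, with 24.2% of all loci called. There egr4.l gave 1.01 ± 0.79 (adjusted p = 0.379), at mean levels of 55.9 CPM in the regions and 7.86 CPM in whole embryos. Dissection and tissue composition cannot be told apart in this comparison.

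Targets that feed back on FGF and ERK signalling (15 loci of dusp, spry, spred and etv genes, 14 tested) ran against the members in the plate, with 8 lower and 0 higher in St. 14 NPa over NPp (1.05% of all loci lower), among them dusp6.l (-2.33) and spry2.l (-3.19). In NBa over NBp 7 were lower and 0 higher (1.47% of all loci lower), and in NNEa over NNEp 1 was lower (0.833%). Of 4 akt loci, kinases downstream of phosphoinositide signals, 0 were called in any of these comparisons or in NC over Pc (1.65% to 12.6% of all loci called), and akt1.l (1.55) and akt1.s (0.76) were higher at St. 14 than at St. 12.5 in NBa, as were 24.3% of all loci.

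In whole embryos no change of pfkfb4 with stage was called: its means of 2 libraries were 63.1, 49.6, 53.2, 58.7, 59.6, 59.3, 56.5 and 53.6 CPM from St. 11-11.5 to St. 18-19 (any-stage test, adjusted p = 0.92, with 77.2% of loci called). egr4.l held 1.65 and 4.90 CPM at St. 11-11.5, 8.08 and 10.3 CPM at St. 13, and 2.32 and 2.21 CPM at St. 18-19. It was higher at St. 13 than at St. 11-11.5 (1.39 ± 0.45, adjusted p = 0.016, 63.2% of loci called) and lower at St. 18-19 than at St. 13 (-2.06 ± 0.46, adjusted p = 0.0104, 16.9% called). Without St. 11-11.5 replicate 1 the first of these was 0.82 (adjusted p = 0.118) and without St. 13 replicate 2 it was 1.199 (adjusted p = 0.0783). The second was lost without St. 13 replicate 2 or either St. 18-19 library (-2.09 to -1.87, adjusted p = 0.0671 to 0.0847). The fall of pfkfb4 in NPp and its rise in NBa with stage thus stood beside similar means in the whole embryo (59.6 CPM at St. 14 and 53.2 CPM at St. 12.5).

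**Figure D5:**
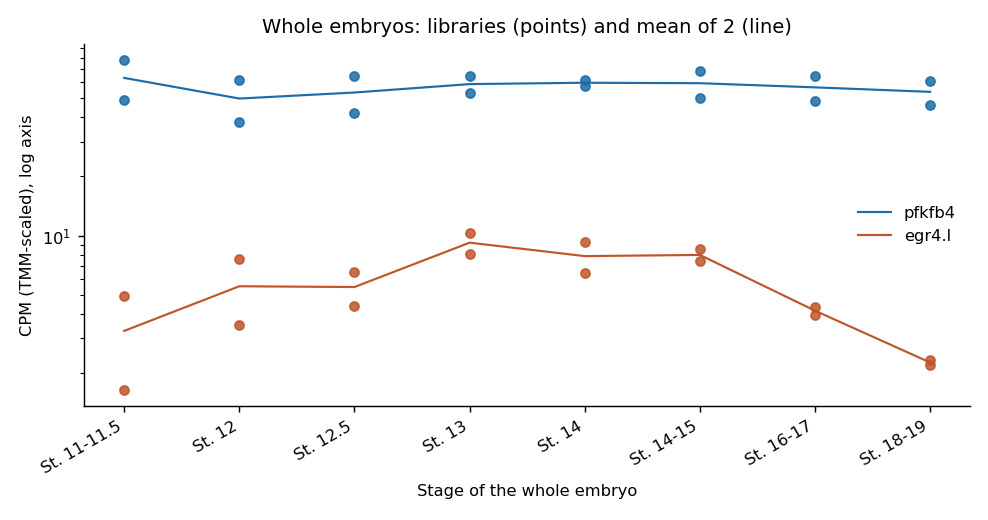
pfkfb4 and egr4.l in whole embryos from St. 11-11.5 to St. 18-19 (CPM, log axis; points are libraries and lines the mean of 2). pfkfb4 stays between 49.6 and 63.1 CPM in the means, and egr4.l peaks at St. 13 (9.20 CPM) and is at 2.27 CPM at St. 18-19.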

How the data were processed

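Single ectoderm pieces and whole embryos were sequenced (stranded TruSeq mRNA libraries, HiSeq). The authors aligned reads to the X. laevis genome with TopHat2 2.0.14, left out multiply mapped reads and deposited raw counts per locus from HTSeq; HTSeq's summary lines, 15.7% to 25.5% of counts (median 18.4%), were left out here. Groups came from the labels. The members, the marker lists and the other lists were chosen with earlier results of these data known; the named loci are the members, the 5 most like pfkfb4 and egr4.l, and the list loci. Loci with more than 10 counts in 2 libraries of a fit were tested with edgeR 4.0.16 (quasi-likelihood F test, TMM factors 0.807 to 1.21, Benjamini-Hochberg at 0.05) in R 4.3.3. Border against other regions was described only. Fits covered all dissected libraries of a stage, all 63, all 16 whole embryos or all 79. log2 CPM used a prior count of 2. Alternatives were limma-voom 3.58.1, DESeq2 1.42.0, RLE factors, other count filters, B108 libraries, library prefix as a covariate, the embryo number as a replicate block, pieces of 1 embryo and region summed, only the compared groups, and each library left out; leaving out pieces that went against their labels, and 1 egr4.s share per embryo, were added after seeing the data. The labels' embryo numbers were taken as animals, while the paper states that replicates came from different embryos and clutches. Deviations of libraries with the same number had a median r of 0.241 (63 pairs) at St. 12.5 and 0.145 (51 pairs) at St. 14. For other numbers the medians were -0.112 and -0.030. These values cannot tell an animal from a clutch or a batch. The test was tried on simulated counts. No 2 libraries were identical.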

Additional observations from a re-analysis of the deposited data

Results flagged for a closer look

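Of 21 sets of a member and a group of 4 to 10 libraries (7 groups), 4 had 1 library set apart from the others by Dixon's criterion. With normally distributed values chance does this in about 1 of 20, a rate that need not hold for skewed levels or counts near 0. pfkfb4 stood at 53.1 CPM in St. 14 ANF/PPE replicate 5, where the other 4 libraries held 2.62 to 14.2 CPM, and that library also had the highest neural crest marker sum of its group (388 CPM). egr4.l stood at 2.27 CPM in St. 14 NPp replicate 4, under 3.79 to 4.07 CPM in the other 3. egr4.s stood at 2.99 CPM in undivided NB replicate 3 of St. 14, where the other 3 held 0.475 to 0.761 CPM, and at 0.1004 CPM in St. 12.5 NBa replicate 1, which is 1 count where the other 3 libraries had 0.

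The A-P difference of egr4.l in the neural plate differed between stages: St. 14 minus St. 12.5 was 6.77 on the log2 scale (edgeR interaction, adjusted p = 0.00279). Without NPa replicates 1 and 3 of St. 14 it was 4.28 (adjusted p = 0.283).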

How the results depend on the processing

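Over alternatives other than leaving out single libraries, 357 results kept direction and side of the threshold, 16 fell below it, 2 passed it and 9 turned direction, and over libraries left out 465 kept both, 45 fell below it, 2 passed it and 8 turned. All values are log2 fold changes and no cause was tested. limma-voom ended the call of egr4.l for St. 14 NPa over NPp (3.87), St. 14 NNEa over NNEp (7.50), the plate A-P difference between stages (6.45), NPp (-1.99) and NBp (1.44) between stages, the NNE mean (3.64) and NC over NBa (-1.70), and that of egr4.s in NPa (3.33) and NBp (3.12); for NBa over NBp it turned egr4.l to -0.035. With only the groups compared, calls were lost for egr4.l in St. 12.5 NPa over NPp (-2.37), NBp between stages (2.08), NC over NBa (-2.30) and whole embryos of St. 13 over St. 11-11.5 (1.43), and for egr4.s in NPa (4.10). The replicate block took egr4.l to 4.16 in NPa over NPp (adjusted p = 0.0947) and to -0.39 in NBa over NBp and changed no other member's call. B108 libraries alone gave -0.17 for pfkfb4 and -0.87 for egr4.l in NBa over NBp, -0.039 for pfkfb4 in St. 12.5 NPa over NPp, -0.59 and -0.10 for pfkfb4 and egr4.l in the border A-P difference between stages, 2.07 for pfkfb4 in NBp between stages and 0.013 in NC over NBa. Prefix as a covariate gave -0.087 for pfkfb4 in St. 12.5 NPa over NPp, 1.48 in NBp between stages and 2.44 in undivided NB over NP, where B108 alone could not be run.

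With 1 library left out at a time, values ran from 2.74 to 3.34 for pfkfb4 and 3.66 to 4.86 for egr4.l in St. 14 NPa over NPp, from -0.38 to 0.75 for egr4.l in NBa over NBp, and from 5.30 to 9.50 for egr4.l in NNEa over NNEp. In St. 12.5 NPa over NPp they ran from -0.039 to 0.32 for pfkfb4 and -3.07 to -1.95 for egr4.l. Between stages they ran from 3.45 to 7.84 for egr4.s in NPa, from -2.43 to -1.76 for egr4.l in NPp, from 0.59 to 1.49, 1.41 to 2.38 and 3.46 to 4.90 for pfkfb4, egr4.l and egr4.s in NBp, from -1.61 to -0.27 for pfkfb4 in ANF/PPE over ANB/PPE and from 2.04 to 5.52 for egr4.l in the NNE mean. They ran from 2.53 to 3.39 for pfkfb4 in NC over Pc, from -2.57 to -1.90 for egr4.l in NC over NBa and from 2.68 to 3.81 for pfkfb4 in undivided NB over NP. In whole embryos they ran from -0.48 to 0.18 and 0.82 to 2.40 for pfkfb4 and egr4.l in St. 13 over St. 11-11.5, from -0.38 to 0.0099 and -2.23 to -1.87 in St. 18-19 over St. 13, and from 1.87 to 2.40 for egr4.l over all stages, and from -0.072 to 0.49 for egr4.l in St. 12.5 regions over whole embryos.

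Some alternatives were chosen after seeing the data. Without NPa replicates 1 and 3 of St. 14, pfkfb4 and egr4.l gave 2.33 and 1.92 in NPa over NPp, egr4.l gave 4.28 for the plate A-P difference between stages, and pfkfb4, egr4.l and egr4.s gave -0.066, 2.18 and -3.69 in NPa between stages. B108 libraries alone without NBp replicate 2 gave -0.26 for egr4.l in NBa over NBp and 2.34 and 4.38 for egr4.l and egr4.s in NBp between stages. With 1 value per numbered embryo the egr4.s share differed by 1.103 percentage points, or 1.12 without NBp replicate 2, neither past the exact test.

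Counts of called loci moved by over 1.5 times in 10 of 23 comparisons: between 215 and 1047 (474 as reported) for St. 14 NPa over NPp, 0 (replicate block) and 616 (372) for NBa over NBp, 320 and 1108 (668) for NNEa over NNEp, 234 and 1187 (782) for St. 12.5 NPa over NPp, 55 and 234 (99) for the plate and 0 and 77 (9) for the border A-P difference between stages, 0 and 18 (0) and 5 and 42 (8) for plate minus border at St. 14 and St. 12.5, 2460 and 6495 (3047) for NC over Pc and 1309 and 4421 (3391) for undivided NB over NP. Another scaling moved 6 of 78 group means by over 1 SD. Depth limits egr4.s most, which had 0 to 4 counts in each St. 12.5 piece.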
